A study of Mus musculus with 54 samples.

Results

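The comparison is of gene expression in the lateral entorhinal cortex (LEC) after 14 days of voluntary wheel running. It sets the 3 arrays of 14-day runners (RUN14) against the 3 arrays of the saline-injected control mice of the same day (CTR14), which is 6 of the 54 arrays of the series. The arrays were chosen by their labels, and all genes detected in LEC are described. All mice were male C57BL/6J, 1 month old at the start and housed singly, and both groups received saline by daily injection, so that RUN14 and CTR14 differed in access to a running wheel. The other arrays hold dentate gyrus (DG), runners of 7 and 28 days (RUN7, RUN28), and mice given the AMP-kinase agonist AICAR at 500 mg/kg (ACR). The study asked how running and AICAR compare in their effects on muscle and brain. A second set of 14-day saline mice was labelled as controls of the AICAR group, and values against it are given beside those against the first. The labels give each LEC array a number of its own. Several of these numbers recur on DG arrays of the same groups, so LEC and DG values are not from separate sets of mice. Per the methods the purest and most concentrated RNA samples of a group went on the arrays.

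The LEC passes cortical input on objects and context to the dentate gyrus through the perforant path. Its neurons, as those elsewhere in cortex, answer recent firing with a fast wave of immediate early genes. Among these are the transcription factors of the Fos and Egr families, the synaptic gene Arc, the neurotrophin Bdnf and phosphatases of the Dusp family that dampen kinase signals. Cortical cells also carry the circadian clock, in which CLOCK and BMAL1 (gene Arntl) drive their own repressors, among them the Per, Cry, Bhlhe40 and Nr1d genes. NFIL3 and the activator DBP compete for the same DNA sites in clock output genes. Body temperature reaches the transcriptome through heat shock genes and through the cold-inducible RNA-binding proteins Cirbp and Rbm3.

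Tissue and array quality were checked first. The DG granule cell genes Prox1 and C1ql2 had intensities of 112 to 138 and of 172 to 317 on the 6 LEC arrays, against 1287 to 2351 and 7942 to 11635 on the 5 DG arrays of the same groups. The cortical genes Tbr1, Fezf2 and Nr4a2 were detected on 6 of 6 LEC arrays, but also on 5 of 5 DG arrays at overlapping intensities, so that they did not tell the tissues apart. Neurod6, a pyramidal neuron gene, was detected on 0 of 6 LEC arrays and on 0 of 5 DG arrays, so that its probe did not tell the tissues apart either. Arrays had 11680 to 12214 detected probes, those of 1 group correlated at 0.989 to 0.993, against 0.986 to 0.990 between the groups. An AICAR array, ACR14 replicate 2, stood apart from the other LEC arrays on the principal components, and it enters the fit below through the shared estimate of the spread. Slide and scan day are not given in the sources used here. Throughout, values are log2 signals brought to a common spread on every array, fold changes are differences of these on the log2 scale with their standard error (SE), and called genes are those whose adjusted p is under 0.05.

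No gene passed this threshold between RUN14 and CTR14. Of 8544 genes measured, limma called 0 (0%), with a smallest adjusted p of 0.0632, and it called 0 also with ACR14 replicate 2 left out of the fit. At an unadjusted p under 0.05 there were 748 genes (8.75%), of which 427 were higher (5%) and 321 lower (3.76%) in the runners. All 3 RUN14 arrays lay above all 3 CTR14 arrays for 912 genes (10.7%) and below them for 731 genes (8.56%). The differences were small. The median over all genes was 0.007 on the log2 scale, with quartiles of -0.106 and 0.12 and a median SE of 0.133, and 10 genes were more than 1.5-fold higher and 28 more than 1.5-fold lower. An exact permutation test of 3 arrays against 3 cannot go below p = 0.1.

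The 2 sets of saline controls, which were both given saline and no wheel, differed from each other by a similar count. Set 2 against set 1 gave 0 called genes, 619 at an unadjusted p under 0.05 and a smallest adjusted p of 0.0624 (limma). Against set 2, RUN14 showed 0 called genes, 443 at an unadjusted p under 0.05 (5.18%) and a smallest adjusted p of 0.677. The comparisons with set 1 share its 3 arrays, which ties their values to each other. For this reason the values only stand side by side below, and no correlation between the comparisons is given. For the DG of 14-day runners, 0 of 8756 genes were called and 593 had an unadjusted p under 0.05.

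Among the higher genes, Tmem254a, which encodes a transmembrane protein, came nearest to the threshold. Its log2 signal was 9.15, 9.14 and 9.13 in the CTR14 mice and 9.94, 9.62 and 9.69 in the runners. The groups did not overlap, and the fold change was 0.61 ± 0.11 (SE, n = 3 and 3, adjusted p = 0.0632 by limma). Vmac, a vimentin-associated coiled-coil protein, measured 7.53, 7.51 and 7.65 in CTR14 and 8.18, 8.15 and 8.09 in RUN14, a difference of 0.58 ± 0.13 (adjusted p = 0.170 by limma). Both also lay above the second control set, by 0.30 ± 0.11 and 0.37 ± 0.13.

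The other 10 of the 12 higher genes with the smallest p and no overlap had differences of 0.32 to 0.56. They were Amdhd2 of hexosamine metabolism, the zinc finger gene Zfp334, the sodium pump regulator Fxyd1, the FGF1-binding protein Fibp, the small GTPase Rhoc, the interferon-induced ubiquitin-like protein Isg15, Cirbp, Tmem80, the aspartic protease Bace2 and the sphingomyelinase Smpd2. None was called. Isg15 was detected on 0 of 3 control arrays and on 3 of 3 RUN14 arrays, so that only a bound of at least 1.16-fold can be given, reckoned from the dimmest detected probe of each control array. Second probes for Amdhd2 (0.07), Fxyd1 (0.08) and Rhoc (0.12) gave smaller differences than the probe named here.

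Bhlhe40, Nfil3 and Bcl6 had the smallest p among the lower genes. Bhlhe40, a repressor in the clock loop that also follows neuronal activity, measured 10.71, 10.65 and 10.67 in CTR14 and 9.80, 10.17 and 9.99 in RUN14. Its difference was -0.69 ± 0.14 (adjusted p = 0.170 by limma). Nfil3 measured 9.03, 9.32 and 9.30 in CTR14 and 8.53, 8.54 and 8.44 in RUN14, a difference of -0.71 ± 0.15 (adjusted p = 0.170). Every runner lay below every control in both genes. Bcl6, a zinc finger repressor, measured 9.92, 10.06 and 10.11 in CTR14 and 9.57, 9.26 and 9.41 in RUN14 (-0.62 ± 0.13, adjusted p = 0.170). Sap30, a subunit of the Sin3 histone deacetylase complex, measured 9.53, 9.88 and 9.95 against 8.90, 9.19 and 9.14 (-0.71 ± 0.18). Set beside the second control set, the 4 genes differed less: Bhlhe40 by 0.09 ± 0.14, Nfil3 by -0.34 ± 0.15, Bcl6 by -0.04 ± 0.13 and Sap30 by -0.05 ± 0.18.

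The remaining 8 lower genes of the 12 lay between -0.36 and -0.54. They serve general cell functions: Mbnl2 in splicing, Gspt1 in translation termination, Smc3 in cohesin, Dnajb1 as a co-chaperone of HSP70, Scaf8 in transcription termination, Kpnb1 as an importin, Gtf2h1 in the TFIIH complex and Dcun1d1 in neddylation. A second probe for Mbnl2 gave 0.02, against -0.42 for the probe named here. Of the 24 genes, the direction turned against the second control set for Smpd2 (-0.02), Bhlhe40 (0.09), Mbnl2 (0.02), Scaf8 (0.04) and Dcun1d1 (0.08). A kept direction did not mean a kept size. Over the alternative settings the differences became as small as 0.02 for Zfp334, 0.05 for Fxyd1, 0.08 for Amdhd2, -0.04 for Dnajb1 and -0.05 for Gtf2h1. The smallest were larger for others, such as 0.30 for Tmem254a, 0.37 for Vmac and -0.25 for Kpnb1.

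**Figure D1:**
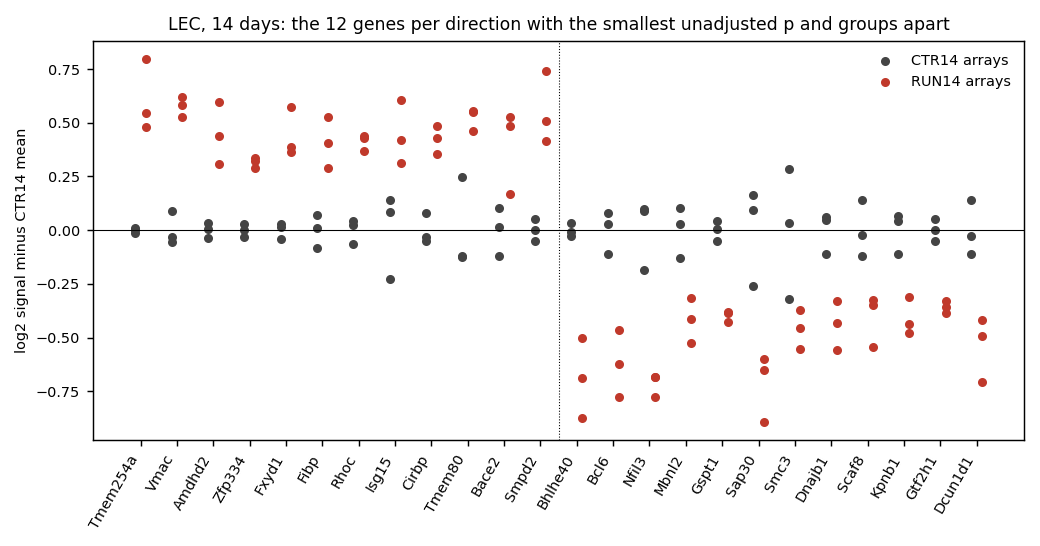
Log2 signal of each LEC array minus the CTR14 mean, for the 12 higher and the 12 lower genes with the smallest unadjusted p among those whose groups do not overlap; black points are the 3 CTR14 arrays and red points the 3 RUN14 arrays. The genes were picked for this separation, which is a description; none was called, and the difference of Tmem254a was 0.61.

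Immediate early genes were lower in the runners than in the first control set as a group, though none was called. Of 28 genes listed, 26 were on the array and 18 were measured, and 17 of the 18 lay below CTR14, with a median of -0.50 against 0.007 over all genes. An unadjusted p under 0.05 was reached by 6 (all lower, against 3.76% of all genes), and 9 had every runner below every control (against 8.56%). The summed intensity of the 18 genes was 16340 to 21780 in RUN14 and 26960 to 30317 in CTR14. In bulk tissue, fewer cells of a type and less RNA per cell cannot be told apart.

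The promoters of 3 members are shown because the list is defined by its answer to calcium and cyclic AMP, which CREB relays through the cyclic AMP response element (core TGACG, full palindrome TGACGTCA). The promoter of Bcl6 is shown for the E-box CACGTG, the site of CLOCK and BMAL1. Each sequence holds the 250 bases before the transcription start, read 5′ to 3′ on the strand of the gene from RefSeq on GRCm38.p6. Capitals mark the TGACG core on either strand in Fos (chr12:85473640-85473889, plus strand) and Egr4 (chr6:85513590-85513839, minus strand), the full palindrome in Dusp1 (chr17:26508473-26508722, minus strand) and the E-box in Bcl6 (chr16:23988853-23989102, minus strand). Other matches are left in lower case.
Fos: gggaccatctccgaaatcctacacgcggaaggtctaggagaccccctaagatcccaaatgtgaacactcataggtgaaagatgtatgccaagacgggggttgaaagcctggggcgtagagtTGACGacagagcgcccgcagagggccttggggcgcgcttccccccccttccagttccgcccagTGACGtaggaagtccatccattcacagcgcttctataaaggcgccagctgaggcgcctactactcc
Egr4: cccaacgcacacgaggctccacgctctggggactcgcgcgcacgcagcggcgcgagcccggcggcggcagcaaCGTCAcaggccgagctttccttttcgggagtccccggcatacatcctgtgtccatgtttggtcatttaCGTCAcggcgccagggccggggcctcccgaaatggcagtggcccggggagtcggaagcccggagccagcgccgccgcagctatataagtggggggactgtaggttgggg
Dusp1: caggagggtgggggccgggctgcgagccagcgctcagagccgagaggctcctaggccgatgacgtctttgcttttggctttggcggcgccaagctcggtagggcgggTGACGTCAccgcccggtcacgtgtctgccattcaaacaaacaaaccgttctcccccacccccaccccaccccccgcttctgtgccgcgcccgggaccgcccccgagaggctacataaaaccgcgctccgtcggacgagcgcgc
Bcl6: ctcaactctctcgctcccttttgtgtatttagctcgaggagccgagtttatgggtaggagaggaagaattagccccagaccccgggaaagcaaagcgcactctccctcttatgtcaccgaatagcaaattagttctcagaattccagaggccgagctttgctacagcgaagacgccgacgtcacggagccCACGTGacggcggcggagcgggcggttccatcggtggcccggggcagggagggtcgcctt

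In Fos the marked cores lie 125 and 62 bases before the start, and in Egr4, on the opposite strand, 173 and 105 bases before it. The palindrome of Dusp1 lies 136 bases before the start and the E-box of Bcl6 55 bases before it, where its last letters begin a TGACG core. Searched on both strands, TGACG occurred in 17.8% of 32851 promoter windows, TGACGTCA in 1.55% and CACGTG in 6.02%. RefSeq promoters were matched for 14 of the 18 immediate early genes, and 12 of their 25 windows (48%, 10 genes) held TGACG. For the clock genes, 15 of 18 were matched, and 4 of their 24 windows (16.7%) held CACGTG. The motifs were not particular to a list, as CACGTG also occurred in 4 of the 25 immediate early windows (16%) and TGACG in 6 of the 24 clock windows (25%), and the palindrome was in 1 immediate early window. The lists were written from known biology of this kind, and a match is a description of letters, not of a bound site.

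Of the transcription factors in the list, 9 of 10 lay below CTR14. Egr1, a zinc finger factor with high basal expression in cortex, measured 13.32, 13.32 and 13.18 in CTR14 and 12.28, 12.83 and 12.81 in RUN14, a difference of -0.63 ± 0.21. Egr4 measured 11.71, 11.90 and 11.57 in CTR14 and 10.45, 11.00 and 10.83 in RUN14 (-0.97 ± 0.35). Neither showed overlap between the groups.

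Of the further members given here, Egr2, Fos and Arc were chosen after their values were seen. Egr2, the largest difference of the list, measured 9.57, 9.65 and 9.23 against 7.37, 8.52 and 8.42 (-1.38 ± 0.53). Fos measured 10.04, 9.77 and 9.63 in CTR14 and 8.65, 9.19 and 8.85 in RUN14 (-0.92 ± 0.60, unadjusted p = 0.140 by limma). Arc, which acts in the removal of AMPA receptors from synapses, measured 10.79, 10.65 and 10.28 against 9.16, 10.26 and 9.66 (-0.88 ± 0.51, unadjusted p = 0.0990 by limma). RUN14 replicate 1 was the lowest runner in Egr1, Egr4, Egr2, Fos and Arc. At the other end of the list, Egr3 stood at 0.01 ± 0.10, though it was detected on 1 of 3 control and 2 of 3 running arrays, and Jun at -0.04 ± 0.15.

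All 8 effectors of the list lay below CTR14 as well. Bdnf, which supports synapses and neuronal survival, read 9.31, 9.46 and 9.76 in CTR14 and 9.03, 8.82 and 8.93 in RUN14, a difference of -0.58 ± 0.18 (unadjusted p = 0.00413 by limma). A second Bdnf probe gave -0.20. Dusp6, the phosphatase of ERK, differed by -0.51 ± 0.16, with its other probes at -0.51 and -0.21. Nptx2, a secreted organiser of AMPA receptors chosen after its values were seen, differed by -0.45 ± 0.17.

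The second set of saline mice did not show the high levels of the first. Against set 1, the second set had a median of -0.56 over the 18 genes, with 17 below. Against set 2, the runners had a median of 0.13, with 12 of 18 above and 0 at an unadjusted p under 0.05. Fos measured 8.21, 9.47 and 7.63 in the second set, and Arc 9.13, 10.13 and 8.56, which put the runners 0.46 ± 0.60 and 0.42 ± 0.51 above it. Egr1 measured 12.54, 12.64 and 12.35 in the second set, close to the runners. The same list had a median of 0.24 in RUN7, -0.51 in RUN28 and -0.10 in ACR14, each against its own controls, and of -0.35 in the DG of RUN14 with 13 of 18 below. In RUN28, 4 of the 18 were called lower, against 655 of all genes (7.67%), and 1275 genes (14.9%) were called in either direction. The LEC mean of Egr1 was 12.38 in CTR7, 13.27 in CTR14 and 13.02 in CTR28, and the mean of Fos was 8.61, 9.81 and 9.38, so that the saline groups differed among themselves.

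**Figure D2:**
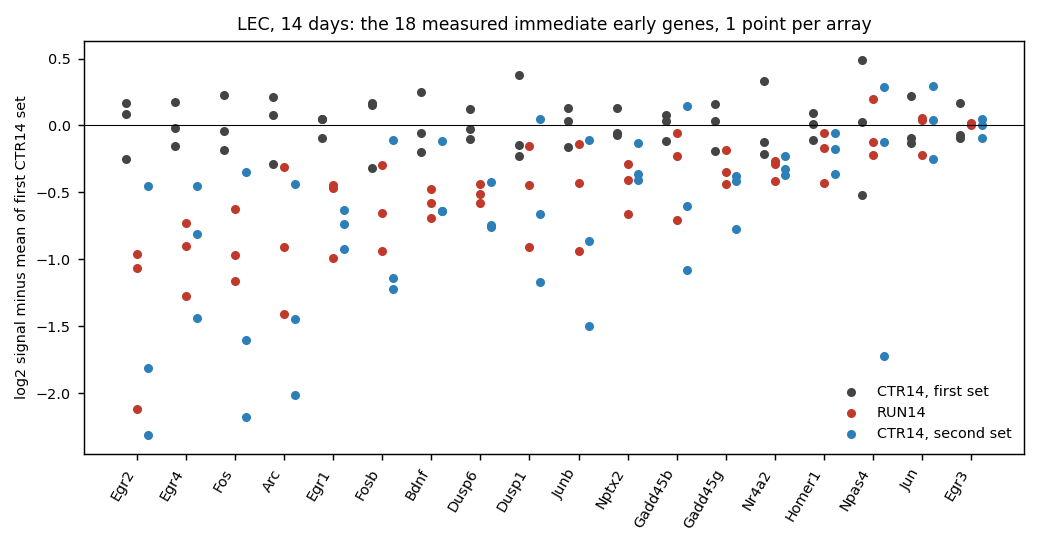
Log2 signal of each LEC array minus the mean of the first CTR14 set, for the 18 measured immediate early genes ordered by fold change; black points are the first CTR14 set, red points RUN14 and blue points the second CTR14 set, 3 arrays each. The runners lie below the first set for 17 of 18 genes on average, and the second set lies with the runners, 12 of 18 genes of the runners being above it.

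Among the clock genes, 4 of 5 activators and 5 of 8 repressors lay below CTR14, and 2 of 3 output factors above it. Of 22 listed, 18 were measured, 11 lay below CTR14 and 7 above, with a median of -0.16, and 6 reached an unadjusted p under 0.05, all lower (against 3.76% of all genes). These were Bhlhe40, Nfil3, Clock, Arntl, Csnk1e and Per2. The activator Clock differed by -0.33 ± 0.12 without overlap of the groups, and its partner Arntl by -0.34 ± 0.13 with overlap. Both lay as far below the second control set, by -0.31 ± 0.12 and -0.34 ± 0.13. Csnk1e, the kinase that marks PER proteins for degradation, differed by -0.27 ± 0.13.

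Dbp, an output activator of the clock, read 12.05, 12.02 and 11.90 in CTR14 and 12.12, 12.28 and 12.47 in RUN14. The groups did not overlap, and the difference was 0.30 ± 0.18 (unadjusted p = 0.104 by limma, not called). It was 0.48 ± 0.18 above the second control set, 0.63 in RUN7, 0.41 in RUN28 and 0.53 in the DG. Per2, chosen after its values were seen, read 9.20, 9.56 and 9.64 against 8.85, 9.05 and 9.05 (-0.48 ± 0.22). Per1, chosen likewise, read 10.02, 10.29 and 10.25 against 9.40, 10.27 and 9.83, with overlap between the groups (-0.35 ± 0.31). In RUN28 Per1 fell by 1.49 and Per2 by 0.91, both called (adjusted p = 0.00286 and 0.00628 by limma), where 7.67% of all genes were called lower. Against the second 14-day control set, Per1 and Per2 of the runners stood at 0.24 and 0.11. The hour of tissue collection is not given in the sources used here, and its part in these values was not tested.

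Both cold-inducible genes lay above CTR14. Cirbp read 9.28, 9.39 and 9.26 in CTR14 and 9.80, 9.67 and 9.74 in RUN14, a difference of 0.42 ± 0.11 (adjusted p = 0.309 by limma). Rbm3 read 10.01, 10.10 and 9.90 against 10.28, 10.16 and 10.60, a difference of 0.34 ± 0.17. In neither gene did the groups overlap, while 10.7% of all genes had every runner above every control. Against the second control set the differences were 0.23 ± 0.11 and 0.09 ± 0.17. In RUN7 they were 0.01 and -0.29. In RUN28 both were called, at 0.65 and 1.03 (adjusted p = 0.000937 and 0.000792 by limma), where 7.26% of all genes were called higher. The differences in the DG of RUN14 were 0.50 and 1.00, where 0 of 8756 genes were called.

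Chaperones lay slightly lower. Of 15 cytosolic heat shock genes measured, 11 lay below CTR14, with a median of -0.10, and 3 were lower at an unadjusted p under 0.05 (against 3.76% of all genes). The median was -0.046 without CTR14 replicate 3 and -0.154 without CTR14 replicate 1, and against the second control set it was -0.04, with 9 of 15 below. Dnajb1 read 11.45, 11.61 and 11.62 in CTR14 and 11.00, 11.23 and 11.13 in RUN14 (-0.44 ± 0.11). Its difference was as small as -0.04 over the alternative settings. The HSP90 co-chaperone Chordc1 differed by -0.31 ± 0.09 and Hsp90aa1 by -0.45 ± 0.15, while the small heat shock protein Cryab stood at 0.28 ± 0.14. Of 14 chaperones and stress genes of the endoplasmic reticulum, 9 lay below CTR14, with a median of -0.15, and 10 lay below the second control set, with a median of -0.10. Dnajc3 differed by -0.41 ± 0.13, Herpud1 by -0.22 ± 0.10, Dnajb9 by -0.31 ± 0.15 and Pdia4 by -0.25 ± 0.12.

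Glucocorticoid-responsive genes were also lower than in the first control set. Of 13 measured, 11 lay below CTR14, with a median of -0.18, and 2 were lower at an unadjusted p under 0.05 (against 3.76% of all genes). Errfi1, an inhibitor of EGF receptor signalling, differed by -0.36 ± 0.12, the kinase Sgk1 by -0.58 ± 0.23 and the cell cycle inhibitor Cdkn1a by -0.48 ± 0.24, with its other probes at -0.26 and -0.19. The metallothionein Mt2 stood at 0.36 ± 0.18. Against the second control set the direction of the list turned, with 11 of 13 above and a median of 0.10.

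Synaptic vesicle and release genes lay below CTR14 for 18 of 25 members, with a median of -0.11, which became 0.02 against the second control set, -0.199 without CTR14 replicate 3, and -0.053 and -0.069 without CTR14 replicates 2 and 1. Syn2, a synapsin that tethers vesicles, read 12.90, 12.95 and 12.50 in CTR14 and 12.07, 12.26 and 12.24 in RUN14 (-0.60 ± 0.16). The active zone scaffold Rims1 differed by -0.42 ± 0.19 and the vesicle protein Syt4 by -0.24 ± 0.13. The vesicular glutamate transporter Slc17a7 stood at 0.41 ± 0.23, with every runner above every control. When the arrays were centred without being brought to 1 spread, the median of the list turned to 0.024.

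Growth factor genes were mixed, with 7 of 15 above CTR14 and a median of -0.06. The median turned to 0.013 against the second control set, 0.015 without CTR14 replicate 2 and 0.008 without RUN14 replicate 3. Vegfa, the main factor of vessel growth, read 9.25, 8.96 and 9.20 in CTR14 and 8.77, 8.82 and 8.81 in RUN14 (-0.34 ± 0.11, unadjusted p = 0.00418 by limma). Its second probe gave -0.24, and the second control set -0.28 ± 0.11. Vegfb stood at 0.14 ± 0.09 and the neurotrophin receptor Ngfr at 0.25 ± 0.14. Tgfb1 was detected on 0 of 3 control arrays and on 3 of 3 running arrays, which gives a bound of at least 1.09-fold.

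The AMP-kinase and PGC-1alpha genes, the energy-sensing axis that the study compared as protein, mainly in muscle, were divided between both directions. In LEC the study measured phosphorylated AMP-kinase and reported it raised in RUN14, which array values do not measure. Of 17 measured, 9 lay above CTR14, with a median of 0.04 that ranged from -0.028 to 0.071 as each array was left out. With the second control set, 11 lay above, with a median of 0.03. The regulatory subunit Prkab1 stood at 0.24 ± 0.10 and the deacetylase Sirt1 at -0.30 ± 0.17. The glucose transporters Slc2a1 and Slc2a3 stood at -0.24 ± 0.13 and -0.18 ± 0.11. The catalytic subunit Prkaa2 read 8.71, 8.59 and 8.78 against 8.36, 8.75 and 8.60 (-0.13 ± 0.18), with overlap, and its second probe gave -0.33. Of the other genes the study followed in this tissue, Tnnc1, a troponin, stood at 0.20 ± 0.34, Nos1 at -0.16 ± 0.13 and Il12a at -0.06 ± 0.15. The study followed Tnnc1 as RNA but nNOS (gene Nos1) and the interleukins as protein, which the array values do not measure. Il1b and Il4 did not pass the detection filter, and no value is given for them.

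Cytosolic ribosomal proteins lay above CTR14 for 41 of 53 members with a median of 0.11, and complex I subunits for 27 of 32 with a median of 0.07, beside 4390 of 8544 over all genes. Of these members 2 and 0 were higher at an unadjusted p under 0.05 (against 5% of all genes). Without RUN14 replicate 3 the medians were 0.043 and -0.012, so that the direction of complex I rested on that array. Against the second control set they were 0.11 and 0.04, with 47 of 53 and 23 of 32 above. Complexes II to V (22 of 37 above, median 0.03) and the mitochondrial ribosome (39 of 66, median 0.03) lay nearer to all genes. In RUN28 the medians were 0.33 and 0.44, with 20 of 53 and 23 of 32 called higher, against 620 of all genes (7.26%). In ACR14 against its own controls they were -0.26 and -0.27. Antioxidant genes lay above CTR14 for 17 of 22 members, with a median of 0.10, which was 0.040 without RUN14 replicate 3 and 0.02 against the second control set. Gpx4, the glutathione peroxidase that repairs lipid peroxides, read 10.22, 10.23 and 10.27 in CTR14 and 10.65, 10.55 and 10.83 in RUN14 (0.44 ± 0.12), although a second probe gave 0.05. Sod1 stood at 0.22 ± 0.12, Gstm5 at 0.26 ± 0.14 and thioredoxin (Txn1) at -0.30 ± 0.14.

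Microglial markers lay above CTR14 for 9 of 11 members, with a median of 0.18, which was 0.079 without CTR14 replicate 2 and 0.107 without RUN14 replicate 3. Aif1, which encodes the microglial protein IBA1, read 7.52, 7.52 and 7.61 in CTR14 and 8.03, 7.80 and 8.26 in RUN14 (0.49 ± 0.15), with a second probe at 0.16. Trem2, a lipid receptor of microglia, stood at 0.28 ± 0.11, and the complement genes C1qa and C1qc at 0.29 ± 0.15 and 0.18 ± 0.10. The summed intensity of the list was 6931 to 7540 in the runners and 6441 to 6730 in CTR14, without overlap. Against the first set, 2 of the 11 were higher at an unadjusted p under 0.05 (against 5% of all genes). Against the second control set the median was again 0.18, with 10 of 11 above and 3 higher at that threshold (against 222 of 8544 genes). The median was -0.18 in RUN7 and 0.32 in RUN28.

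Markers of other cells and of neighbouring regions were read for the make-up of the dissections. Pericyte and vessel wall markers lay above CTR14 for 9 of 10 members (median 0.14), with summed intensities of 3213 to 3990 in RUN14 and 2702 to 4134 in CTR14. They lay above the second control set for 6 of 10 (median 0.01). Myelin markers lay above the first set for 7 of 13 (median 0.01) and above the second for 13 of 13 (median 0.19), with sums of 35822 to 45711 in RUN14 and 29867 to 44824 in the first set. Striatal markers lay above for 9 of 10 (median 0.16), with sums of 6111 to 6221 in RUN14 and 3546 to 8845 in CTR14, and hypothalamic markers for 8 of 9 (median 0.16). Beside the second control set the counts were 10 of 10 (median 0.31) and 6 of 9 (median 0.05). None of the striatal or hypothalamic markers had, against either set, an unadjusted p under 0.05. Drd2, a defining striatal gene, was detected on 4 of the 6 arrays. Cortical layer markers lay below the first set for 11 of 16 (median -0.16). Their sums were 18054 to 19387 in RUN14 and 20184 to 20618 in CTR14. Beside the second set 7 of 16 lay below (median 0.01). GABA genes lay below the first set for 9 of 12 and the second for 7 of 12 (medians -0.16 and -0.004). Dentate granule markers lay below for 4 of 4 and 3 of 4. Entorhinal and neighbouring markers lay above for 13 of 16 and 11 of 16 (medians 0.05 and 0.13). The part of dissection in the results above was not tested.

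**Figure D3:**
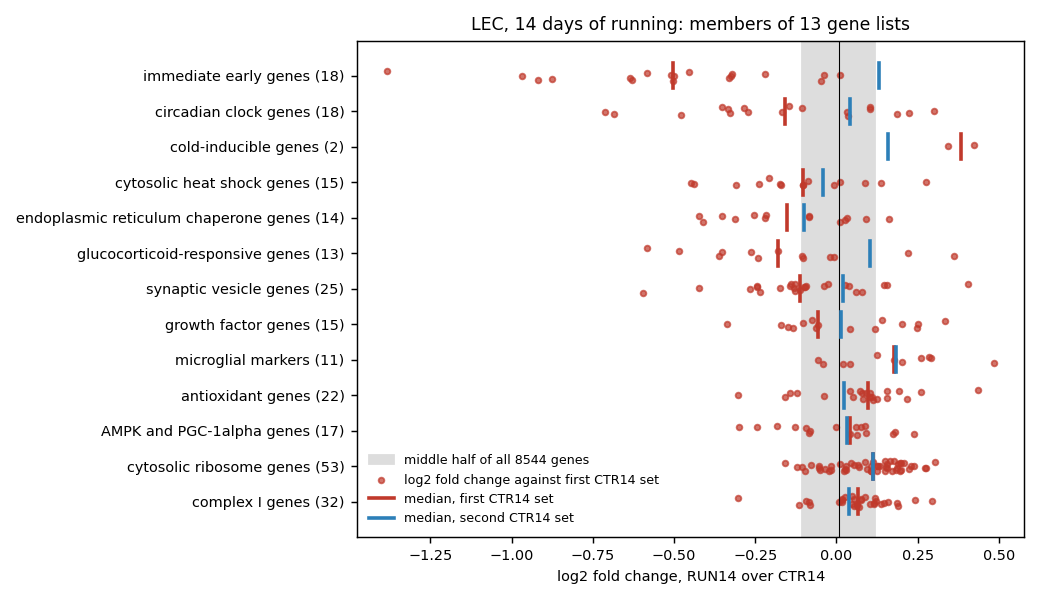
Log2 fold change of RUN14 over CTR14 for each measured member of 13 gene lists (red points; number of members in brackets), with the list median against the first control set (red bar) and against the second (blue bar); the grey band spans the quartiles of all 8544 genes, -0.106 to 0.12. The median of the immediate early genes was -0.50 against the first control set and 0.13 against the second, and that of the microglial markers was 0.18 against both.

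The effect of 14 days of running was then compared with that of 7 days, each against its own controls. The difference of effects was called for 25 genes, of which 8 were higher (0.0936%) and 17 lower (0.199%) at 14 days, and 1487 had an unadjusted p under 0.05. In all 25 the fitted effects of 7 and 14 days had opposite signs, which picking genes on the difference of these effects favours. Of the 8544 genes, 83 (0.971%) were called in RUN7 by itself. The count depends on single arrays, from 0 without RUN7 replicate 3 or without CTR14 replicate 1 to 311 without CTR7 replicate 3, and it was 102 with ACR14 replicate 2 left out of the fit.

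Among the genes lower at 14 days, Vapa, which tethers the endoplasmic reticulum to other membranes, had effects of 0.73 in RUN7 and -0.44 in RUN14, a difference of -1.17 ± 0.21 (adjusted p = 0.0310 by limma). The ubiquitin ligase Huwe1 had effects of 0.48 and -0.46, and the taurine transporter Slc6a6 of 0.65 and -0.21. Smad1, which carries BMP signals, had effects of 0.58 and -0.32 on the named probe, while its second probe gave -0.06 in RUN14. Sap30 (-1.27 ± 0.26), Bhlhe40 (-0.95 ± 0.20), Smc3 (-0.84 ± 0.17) and Kpnb1 (-0.68 ± 0.15), which stood among the lower genes of RUN14 itself, were also among the 17. The LEC mean of Bhlhe40 was 9.87 in CTR7, 10.14 in RUN7, 10.67 in CTR14 and 9.99 in RUN14, so the 2 control groups differed by more than either running effect.

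Among the genes higher at 14 days, Tmem254a had effects of -0.33 in RUN7 and 0.61 in RUN14, a difference of 0.94 ± 0.15 (adjusted p = 0.0182 by limma). Cox7a1, a subunit isoform of complex IV, had effects of -0.64 and 0.13, and the peroxidase Gpx7 of the endoplasmic reticulum -0.39 and 0.33. Tmem141 had effects of -0.41 and 0.33. At 28 days Tmem254a, Cox7a1 and Tmem141 were called higher, at 0.45, 0.59 and 0.56, as were 7.26% of all genes.

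**Figure D4:**
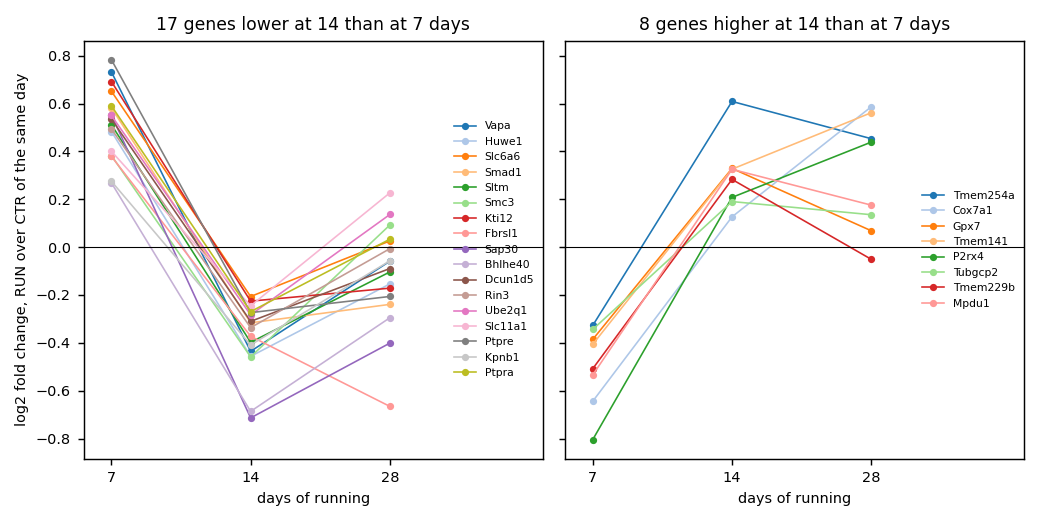
Fitted log2 fold change of runners over the controls of the same day, at 7, 14 and 28 days (x axis, not to scale in time), for the 17 genes called lower (left) and the 8 called higher (right) at 14 than at 7 days; each line is 1 gene, each point rests on 3 runners and 3 or 4 controls, and no error is drawn. The genes were picked for the difference between 7 and 14 days, and Vapa passes from 0.73 to -0.44.

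No gene was called for the difference between 14 and 28 days of running, where 1338 genes had an unadjusted p under 0.05 and the smallest adjusted p was 0.0503 (limma). The complex I subunit Ndufb4 had effects of -0.30 at 14 days and 0.82 at 28 days, and the complex IV subunit Cox7b of -0.35 and 0.77. Txn1 (-0.30 and 0.65) and the Mediator subunit Med18 (-0.05 and 0.68) ran the same way. In the other direction stood Pitpnm3 (0.09 and -0.76), the receptor phosphatase Ptprf (0.06 and -0.99), Nol4l (0.09 and -0.87) and Sgsm1 (0.06 and -0.86).

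Running and AICAR at 14 days, each against its own controls, differed for 0 called genes, with 1063 at an unadjusted p under 0.05 and a smallest adjusted p of 0.112 (limma). Gpx4 had effects of 0.44 with running and -0.45 with AICAR, and Rps19bp1 of 0.20 and -0.56. Fibp (0.41 and -0.20) and the complex IV assembly factor Surf1 (0.30 and -0.38) had the same order. Scaf8 (-0.41 and 0.31), Mbnl2 (-0.42 and 0.19), Bhlhe40 (-0.69 and 0.19) and Smc3 (-0.46 and 0.25) had the reverse order. The running and AICAR effects rest on different control sets, so a gap between the sets enters these differences. For Bhlhe40 the second set differed from the first by -0.78, while the means of RUN14 and ACR14 were 9.99 and 10.09. Against the second set the runners stood at 0.04 for Scaf8, 0.02 for Mbnl2, 0.09 for Bhlhe40 and -0.24 for Smc3. The running effects of Gpx4 and Fibp were as small as 0.11 and 0.20 over the alternative settings. Second probes gave running effects of 0.05 for Gpx4 and 0.14 for Surf1 against the first set. Without ACR14 replicate 2 the count was again 0, and without ACR14 replicate 1 it was 8.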

How the data were processed

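RNA of LEC and DG was hybridised to Illumina MouseRef-8 arrays. The authors deposited probe intensity values from GenomeStudio 1.6.0 (named in the submitters' processing notes) without normalization between arrays, a detection p-value per probe, and a z-score per probe, the log intensity centred and scaled on each array. Background subtraction is not given in the sources used here. Intensities were taken to log2, centred and divided by the SD of their array, following the methods, and multiplied by the mean SD of the LEC arrays, 1.75. Of 25697 probes, 12233 had a detection p of 0.02 or less on every array of at least 1 LEC group. Names came from the platform annotation (23978 probes with 1 symbol, 0 with several, 1719 with none), of which 23971 matched RefSeq and 4 symbols were updated. The brightest probe stood for a gene. All 28 LEC arrays were fitted with limma 3.58.1 in R 4.3.3 as 9 group means, with Benjamini-Hochberg adjustment over 8544 genes. The procedure was tested on simulated data. A p-value weighs a difference against the spread among mice within all 9 LEC groups, not only those compared. Precision is limited by the number of arrays. DG was fitted alike.

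The members and the 40 gene lists (658 measured symbols) were chosen with earlier results of these data known. Named genes are the 12 per direction with called or smallest p and no overlap, the 4 members per described list with the largest moderated t, genes the study followed in LEC, and the 4 per direction in each difference of effects. Alternatives covered normalization (quantile, neqc with offset 16, centring, deposited scores), detection filters, probes, arrays in the fit, a replicate block, a variance trend, control sets, the methods' selection rule and leaving out each array.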

Additional observations from a re-analysis of the deposited data

Results flagged for a closer look

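The difference between the effects of 14 and 7 days of running was itself tested, and 25 genes passed (limma, adjusted p under 0.05). Of these, 12 are given by name. Tmem254a (0.94), Cox7a1 (0.77), Tmem141 (0.73) and Gpx7 (0.71) had the higher effect at 14 days. Sap30 (-1.27), Vapa (-1.17), Bhlhe40 (-0.95), Huwe1 (-0.94), Smad1 (-0.9), Slc6a6 (-0.86), Smc3 (-0.84) and Kpnb1 (-0.68) had the lower effect. Their sign was the same for all 25 under each setting run on single genes, including the second 14-day control set, under which 37 genes were called and 10 of the 25 were among them. Bhlhe40 stood at -0.18 with that control set (adjusted p = 0.683 by limma). The genes were picked on arrays that these settings reuse, so an unchanged sign is a description. Without RUN7 replicate 3, without CTR14 replicate 1 or with only the arrays compared, 0 of the 25 were called.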

How the results depend on the processing

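Limits: with 3 arrays a group, single arrays move the counts, no slide or scan day could be blocked, and the choice of control set decides several directions. RUN14 against CTR14 gave 1 called gene (Tmem254a) when arrays were centred only, without the detection filter or with limma's variance trend, 4 (Egr4, Nfil3, Pramel12, Lpgat1) with only the arrays compared, and 0 to 2 when each array was left out, the 2 (Tmem254a, Agpat3) without RUN14 replicate 2. The methods' selection gave 515 probes. The 748 genes at an unadjusted p under 0.05 became 1234 without the detection filter and 443 with the second control set. The replicate numbers do not pair the mice (correlations of 0.076, 0.141 and 0.016 for the same number), and the replicate block gave 0 called genes and 658 at an unadjusted p under 0.05. With the second control set the median of immediate early genes was 0.132, of clock genes 0.043 and of cold-inducible genes 0.159. With all 14-day controls they were -0.197, -0.06 and 0.271, and neqc gave -0.214 for the clock genes. Left-out arrays gave -0.537 to -0.402, -0.168 to -0.138 and 0.319 to 0.447.

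On the probe that stood for each gene, directions turned only with the second control set, among the genes followed: Smpd2 -0.018, Bhlhe40 0.092, Mbnl2 0.023, Scaf8 0.045, Dcun1d1 0.083, Dusp6 0.133, Egr1 0.131, Herpud1 0.109, Errfi1 0.038, Sgk1 0.140, Cdkn1a 0.068, Txn1 0.029, Sirt1 0.013, Egr2 0.146, Fos 0.460, Arc 0.422, Per1 0.236 and Per2 0.107. The direction of Mbnl2 also turned on its second probe, at 0.02 against the first control set. The cause was not tested.

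The difference from RUN7 gave 38 called with every probe on its own, 1 with only the arrays compared, 102 with ACR14 replicate 2 left out of the fit, and 0 to 311 when each array was left out. Without a CTR7 replicate it gave 1, 14 and 311 (replicates 1 to 3), without a RUN7 replicate 82, 71 and 0, without a CTR14 replicate 0, 5 and 2, and without a RUN14 replicate 6, 12 and 1. The difference from RUN28 gave 5 with quantile normalization, 5 with neqc, 4 with every probe, 2 with detection in the groups compared, 27 with only those arrays, and 0 to 40 when each array was left out (40 without CTR28 replicate 3, 12 without RUN28 replicate 1, 1 without CTR14 replicate 1 or CTR28 replicate 4). The difference from ACR14 gave 0 to 8 (8 without ACR14 replicate 1). The control sets differed for 2 genes with every probe, 3 with only their arrays and 0 to 0 when each array was left out. Leaving ACR14 replicate 2 out of the fit, and the second control set for the differences from RUN7 and RUN28, were chosen after seeing the data.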
